A study of Rattus norvegicus with 30 samples.

Results

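The urea cycle genes of rat liver were examined in 30 animals: Cps1, Otc, Ass1, Asl and Arg1, which encode the enzymes of the cycle, and Slc25a15, which encodes the mitochondrial ornithine carrier. They were taken as every probe set annotated to exactly 1 of these symbols, which gave 13 probe sets of 31042 on the array, for 6 of 14217 genes. Cps1 and Asl had 2 probe sets each, Slc25a15 had 6, and Otc, Ass1 and Arg1 had 1 each. Where a gene had several, the brightest stood for it.

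Pieces of the left lobe were taken from Sprague-Dawley females aged 10 weeks and profiled on Affymetrix rat expression arrays, with 10 animals in each of 3 groups. Control rats received no handling and were euthanized on day 2. Handled rats were weighed, restrained and given water by gavage for 1 day (euthanized on day 2) or daily for 4 days (euthanized on day 5), with repeated tail vein bleeding on the last day of handling. No unhandled group was euthanized on day 5, so 4 days of handling and the later day cannot be told apart. The comparisons ask whether such routine procedures alter hepatic expression of these genes.

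The urea cycle converts ammonia, which is toxic, into urea for excretion, and it runs in full only in hepatocytes, most strongly around the portal veins. Carbamoyl phosphate formation and citrulline formation take place in mitochondria, and the later steps in the cytosol. Its enzymes are known to be induced by dietary protein, glucagon and glucocorticoids, the last of these being a hormone of restraint stress.

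Values are the deposited linear intensities, as deposited by the authors with a mean of 1.01 on every array, and differences are on the log2 scale. Intensities of different probe sets were not compared, since probes differ in brightness. In homogenized liver, fewer cells of a type and less RNA per cell cannot be told apart. The 6 hepatocyte markers measured had a summed intensity of 327 to 379 in all 30 rats, with overlapping ranges in every group. All but Apoa1 read near the top of the scale, as array maxima were 66.1 to 83.2, so this sum is a weak measure of hepatocyte content. Apoa1 read 27.1 to 36.8 in control rats 1 to 3 and 39.3 to 49.0 in control rats 4 to 10, and the other markers overlapped between these 2 sets. Control rats 1, 2 and 3 differed from the other controls over much of the array: in 5.98% of all probe sets these 3 rats lay outside the range of the other 27. Nothing in the labels sets them apart, and they were singled out by their array profiles. The study's methods describe 3 samples of the control group with slightly different genome-wide profiles, without naming the animals, and kept them. Results are therefore given with and without control rats 1, 2 and 3, and the 3 rats were not tested against the others.

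Promoters of 5 of the 6 genes were read from RefSeq (GRCr8). Those of Asl and Otc are shown because these were the genes on which control rats 1 to 3 stood apart, in opposite directions, and that of Cps1 because it held the only motif match. Each is the 250 bases before the transcript start, and capitals mark the match.
Asl, chr12:32295658-32295907, plus strand: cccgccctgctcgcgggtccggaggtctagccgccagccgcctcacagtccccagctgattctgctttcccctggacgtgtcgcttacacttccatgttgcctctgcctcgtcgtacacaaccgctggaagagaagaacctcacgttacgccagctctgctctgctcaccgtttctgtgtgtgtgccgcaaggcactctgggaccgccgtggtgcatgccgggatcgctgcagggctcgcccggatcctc
Otc, chrX:15202474-15202723, minus strand: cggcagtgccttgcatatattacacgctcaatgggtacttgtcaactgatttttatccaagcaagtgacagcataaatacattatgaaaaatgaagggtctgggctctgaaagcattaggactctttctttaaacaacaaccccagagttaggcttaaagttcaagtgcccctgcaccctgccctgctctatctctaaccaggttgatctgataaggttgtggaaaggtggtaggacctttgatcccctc
Cps1, chr9:76063613-76063862, plus strand: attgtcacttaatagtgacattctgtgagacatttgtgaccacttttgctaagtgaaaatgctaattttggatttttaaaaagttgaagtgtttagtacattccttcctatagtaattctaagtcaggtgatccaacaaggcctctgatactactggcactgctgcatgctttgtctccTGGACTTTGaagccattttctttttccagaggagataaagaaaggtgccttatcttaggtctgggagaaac
Of 4 motifs searched on both strands, the HNF4-type element CAAAGTCCA was found in Cps1 on the opposite strand, at 71 to 63 bases before the start, and in 0.338% of 33469 promoters. The C/EBP element TTGCNNAA (9.22% of promoters), the glucocorticoid receptor response element core TGTTCT (17.5%) and the cAMP response element TGACGTCA (1.59%) were in none of the 5 windows. Asl had 64.0% G and C in its window, against 44.4% in Otc and 38.0% in Cps1.

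Asl encodes argininosuccinate lyase, which splits argininosuccinate into arginine and fumarate. It had the widest range of the cycle. Its brightest probe set (1367754_s_at) read 5.64, 4.76 and 6.86 in control rats 1, 2 and 3. In control rats 4 to 10 it read 18.0 at the lowest, 22.1 at the median and 24.1 at the highest. The rats handled for 1 day ran from 12.4 through a median of 13.9 to 18.8, and those handled for 4 days from 7.88 through 13.5 to 18.9. The levels thus lay in 3 tiers: control rats 4 to 10 highest, both handled groups mostly lower, and control rats 1 to 3 below all of the other 27. The upper tiers overlapped at their edge, since 2 rats of the 1 day group and 1 of the 4 day group lay above the lowest of control rats 4 to 10, and the handled groups overlapped each other.

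The second Asl probe set (1368916_at) read 4.79, 3.58 and 5.63 in control rats 1, 2 and 3 and 15.9 to 21.3 in control rats 4 to 10. The 1 day group ran from 10.2 to 16.3 and the 4 day group from 5.97 to 16.2. The order of the rats was almost the same, with r = 0.98 between the 2 probe sets over the 27 other rats after removal of group means. The accession listed for 1367754_s_at belongs to Hnrnpab, an RNA-binding protein gene, in RefSeq. The probe set correlated at 0.14 with the Hnrnpab probe set 1370309_a_at, which read 6.20 to 7.91 in all 30 rats.

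Control rats 1 to 3 were 3.83-fold and 4.18-fold lower than control rats 4 to 10 on the 2 Asl probe sets. Of the 10 rats handled for 1 day, 8 and 9 lay below every one of control rats 4 to 10, and of those handled for 4 days, 9 and 9 did. Over all probe sets, at least 9 of 10 handled rats lay below control rats 4 to 10 in 0.335% at 1 day and 0.364% at 4 days.

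**Figure D1:**
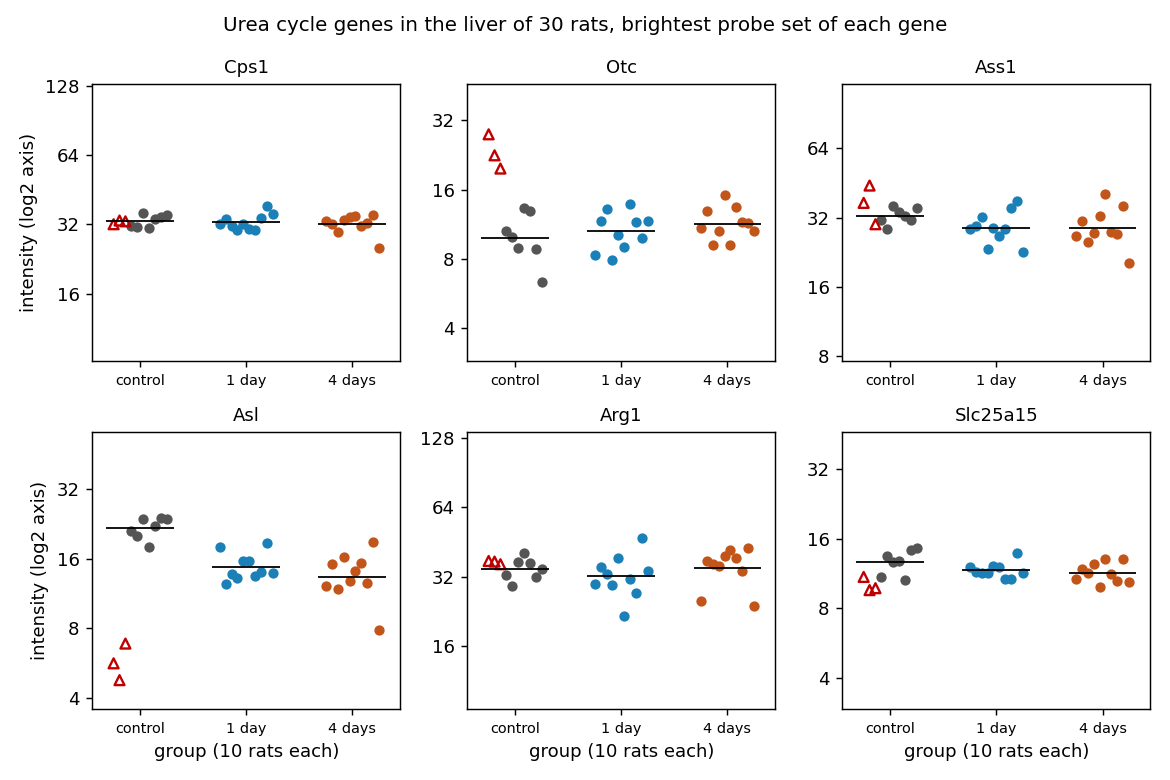
Intensity on a log2 axis of the brightest probe set of each urea cycle gene, by group. Each point is 1 rat, open triangles are control rats 1 to 3, and bars are the mean of log2 values without these 3 rats. Triangles lie below all other rats for Asl (4.76 to 6.86) and above them for Otc (19.7 to 27.8).

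Otc encodes ornithine transcarbamylase, the mitochondrial enzyme that makes citrulline. Control rats 1, 2 and 3 read 27.8, 22.5 and 19.7. Control rats 4 to 10 ran from 6.38 through a median of 9.97 to 13.3, the rats handled for 1 day from 7.91 through 10.8 to 13.9, and those handled for 4 days from 9.16 through 11.2 to 15.1. The first 3 controls were thus above all of the other 27 rats, 2.34-fold over control rats 4 to 10, while the remaining 3 sets of rats overlapped throughout.

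The other members did not separate control rats 1 to 3 from the rest. Counted by probe set, 3 of 13 lay outside the range of the other 27 rats, 2 below and 1 above, for 2 of 6 genes. Across the array 3.03% lay below and 2.95% above.

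Cps1 encodes carbamoyl phosphate synthetase 1, the entry step, which fixes ammonia. It was the steadiest member: control rats 1, 2 and 3 read 32.1, 33.3 and 33.0, control rats 4 to 10 ran from 30.9 to 35.9, the 1 day group from 30.4 to 38.3 and the 4 day group from 25.3 to 35.0. All groups overlapped. Its within-group SD over the 27 other rats was 0.12 on the log2 scale, against a median of 0.10 for 753 bright probe sets (mean log2 intensity of 3 or more). The second Cps1 probe set (1370151_at) varied more, with an SD of 0.31 and values from 12.0 to 32.3 over all 30 rats. With all controls it differed by -0.16 at 1 day and -0.12 at 4 days (limma adjusted p = 0.746 and 0.794).

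Ass1 encodes argininosuccinate synthase, which joins citrulline to aspartate. It read 37.0, 44.0 and 29.9 in control rats 1, 2 and 3, and 28.7 to 35.9 in control rats 4 to 10. The handled groups reached lower, from 22.7 through a median of 28.7 to 37.8 at 1 day and from 20.3 through 27.6 to 40.5 at 4 days, with overlap on both days.

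Arg1 encodes arginase 1, which releases urea and returns ornithine. Control rats 1, 2 and 3 read 37.4, 37.2 and 36.2, inside the 29.1 to 40.5 of control rats 4 to 10. The handled rats spread more widely, with 21.5 to 47.3 at 1 day of handling and 23.9 to 42.5 at 4 days.

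Slc25a15 carries ornithine into mitochondria in exchange for citrulline. Its brightest probe set (1374800_at) read 10.9, 9.57 and 9.76 in control rats 1, 2 and 3, while control rats 4 to 10 ran from 10.6 to 14.6, the 1 day group from 10.6 to 13.9 and the 4 day group from 9.91 to 13.1. Control rats 2 and 3 lay below every other rat, and rat 1 lay among them. Of the 5 further probe sets, 1381440_at was at the 7.5th percentile of mean intensity on the array and read at most 0.0576 in any rat. The remaining 4 had medians from 1.66 to 9.08 in control rats 4 to 10 and lower medians in both handled groups.

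Every difference is handled minus control as the samples are labelled. With this direction and all 10 control rats, a lower mean was found in handled rats on both days for 19 of 19 genes that are named as raised in the study's text and could be matched to a probe set with 1 symbol, and a higher mean for 6 of 6 named as lowered. The other genes named there were not used here. The direction used here is therefore opposite to the one in the study's text. Samples with differing array profiles belong to the control group both in the study's methods and in the labels. On this point the text and the labels match. Whether the text or the labels are turned for the named genes was not tested. Exchanged labels would turn every direction between handled and control rats given here, those of Asl included.

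With all 10 control rats, no member passed the test in either comparison with control (limma, adjusted p below 0.1 over 31042 probe sets). At 1 day 0 of 13 probe sets were called, against 0.0902% of all probe sets, and 1 had an unadjusted p below 0.05, against 9.33%. At 4 days 0 of 13 were called, against 0.657%, and 2 had an unadjusted p below 0.05, against 11.3%. The methods' t-test and an exact rank-sum test, each with Benjamini-Hochberg adjustment, also called 0 on both days. The mean was lower in handled rats for 11 of 13 probe sets at 1 day and 12 of 13 at 4 days, and the median difference over the 13 was -0.13 and -0.12, beside 50.8% and 49.5% of all probe sets with a lower mean. Of the 13, 6 belong to Slc25a15, so that gene weighs most. Counted by gene, the mean was lower for 5 of 6 at 1 day and 6 of 6 at 4 days, with medians of -0.08 and -0.09.

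Ass1 was the only gene whose brightest probe set had an unadjusted p below 0.05. It differed by -0.22 (SE 0.11, adjusted p = 0.532) at 1 day and by -0.22 (SE 0.11, adjusted p = 0.436) at 4 days. Cps1 differed by -0.01 and -0.05, Slc25a15 by -0.02 and -0.05, Arg1 by -0.13 and -0.01 and Otc by -0.27 and -0.16. For Cps1 the 95% confidence intervals were -0.13 to 0.11 at 1 day and -0.17 to 0.07 at 4 days. For Asl they were -0.51 to 0.54 and -0.65 to 0.41 around 0.02 and -0.12, the widest of the brightest probe sets.

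Without control rats 1 to 3, Asl was lower in both handled groups. These 3 rats were singled out from the same arrays and lay below all others on Asl. Leaving them out therefore raised the control mean of this gene and narrowed its spread. The adjusted p-values do not allow for that choice. At 1 day the 2 Asl probe sets fell by 0.56 (SE 0.13, limma adjusted p = 0.061) and by 0.65 (SE 0.14, adjusted p = 0.0485), to 67.7% and 63.5% of control rats 4 to 10. At 4 days they fell by 0.70 (SE 0.13, adjusted p = 0.0128) and by 0.85 (SE 0.14, adjusted p = 0.00577), to 61.5% and 55.4%. These were the 2 members called at 1 day, against 0.329% of all probe sets called, and 2 of the 3 called at 4 days, against 0.828%. When 1 further rat was left out, the call at 1 day was lost in 10 and 3 of 27 fits for the 2 probe sets, and the call at 4 days in 0 of 27 for either. With replicate number added to the limma model as a block, both calls at 1 day were lost (adjusted p = 0.177 and 0.131). Both calls at 4 days stayed (adjusted p = 0.0527 and 0.0371).

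The third was the dimmer Slc25a15 probe set 1397647_at, which fell by 0.49 at 4 days (SE 0.12, adjusted p = 0.0771) and differed by -0.34 at 1 day (adjusted p = 0.356). It read 1.29 to 2.06 in control rats 4 to 10, 1.07 to 1.94 at 1 day and 0.937 to 1.53 at 4 days. The brightest Slc25a15 probe set differed by -0.15 at 4 days (adjusted p = 0.45) and was not called. Otc, whose mean was lower in handled rats with all controls, was higher without the 3 rats, by 0.10 and 0.20 (adjusted p = 0.91 and 0.628).

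The ratio of 3 prime to 5 prime Gapdh signal, a measure of RNA integrity or labelling, was also higher in handled rats. On the log2 scale it was 0.64 to 0.69 in control rats 1 to 3, 0.55 to 0.70 in control rats 4 to 10, 0.66 to 0.83 in the 1 day group and 0.70 to 0.96 in the 4 day group. With this ratio as a limma covariate and without the 3 rats, the Asl differences were -0.54 and -0.57 at 1 day (adjusted p = 0.256 and 0.268). At 4 days they were -0.67 and -0.75 (adjusted p = 0.117 and 0.102). Slc25a15 1397647_at then differed by -0.17 at 1 day (adjusted p = 0.836) and by -0.28 at 4 days (adjusted p = 0.57). No call remained. Control rats 4 to 10 and the 4 day group met only at 0.70, so the ratio and handling cannot be well separated there.

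**Figure D2:**
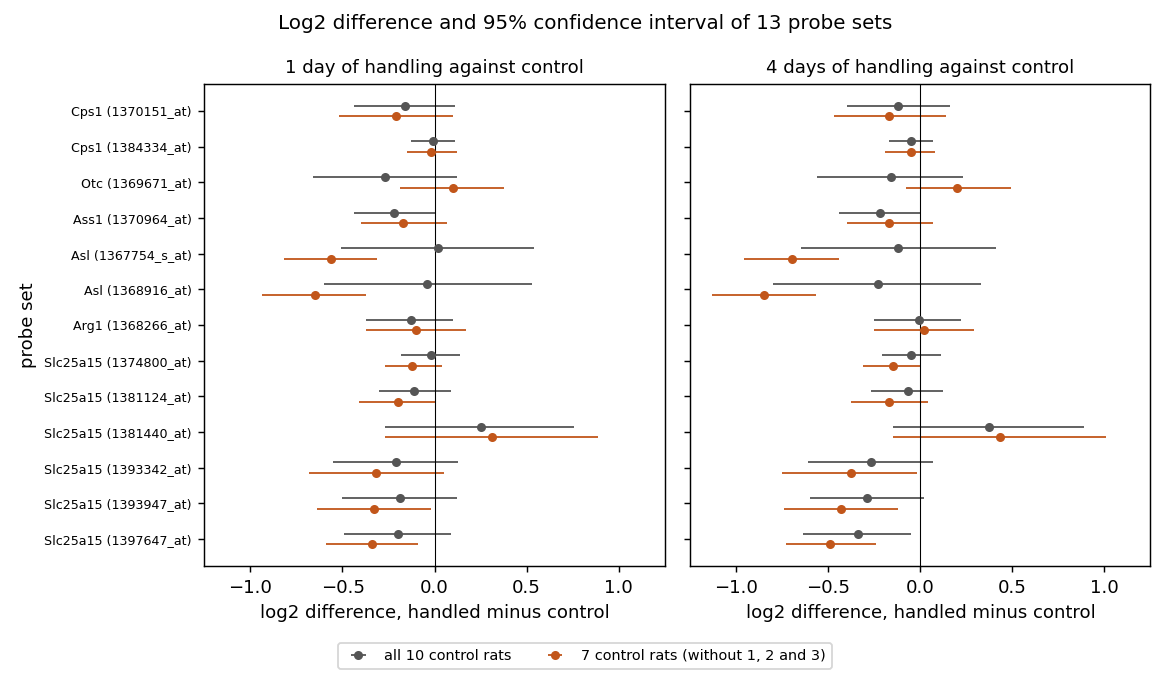
Log2 difference (handled minus control) with 95% confidence interval for the 13 probe sets, at 1 day and 4 days, with all 10 control rats and without control rats 1 to 3. The Asl intervals move from spanning 0 (0.02 and -0.12 for 1367754_s_at) to lying below it (-0.56 and -0.70).

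No member differed between 4 days and 1 day of handling. With all controls 0 of 13 probe sets were called, 0 had an unadjusted p below 0.05 and 8 had a lower mean at 4 days, with differences from -0.20 to 0.12. Over all probe sets 0.0% were called, 5.0% had an unadjusted p below 0.05 and 48.5% a lower mean. Without control rats 1 to 3 the count was also 0.

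Genes that feed or draw on the cycle did not pass the test. Of 42 genes in 5 lists (ammonia and glutamine, aspartate and fumarate, ornithine and arginine, urea and water channels, regulators), 39 were measured, and 0 were called on either day with or without control rats 1 to 3. Unadjusted p was below 0.05 for 5 of 39 at 1 day and 9 of 39 at 4 days with all controls, beside 9.33% and 11.3% of all probe sets. Arg2, the mitochondrial arginase, differed by 0.71 at 1 day (SE 0.28, adjusted p = 0.417) but read at most 0.0702 in any rat. Slc25a13, the carrier that exports aspartate for Ass1, differed by 0.15 at 1 day (adjusted p = 0.456), and Slc25a12, its paralog, by 0.25 (adjusted p = 0.497). Among regulators Foxo1, a transcription factor inhibited by insulin signalling, differed by 0.58 at 4 days (adjusted p = 0.131) and Hnf4a, a hepatocyte transcription factor, by 0.20 (adjusted p = 0.235). Aqp9, a liver channel for water, glycerol and urea, differed by -0.27 at 4 days (adjusted p = 0.407).

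Control rats 1 to 3 also lay below the other 27 for 3 of the 39 genes and above for 3, beside 3.03% and 2.95% of all probe sets. Slc25a13 was among those below, at 9.76 to 10.7 against a median of 12.7 in the others, and so was Agmat, which acts on agmatine, at 4.67 to 5.46 against 5.49 to 9.32. Nags, which makes the activator of Cps1, overlapped, at 3.12 to 4.54 against 1.86 to 3.29.

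Zonation and hormone-response genes were counted in the same way. Of 6 periportal, 9 perivenous and 7 hormone-response genes measured, 0 were called on either day with all controls. Without control rats 1 to 3, Sds, a periportal serine dehydratase, fell by 2.47 at 4 days (SE 0.63, adjusted p = 0.089) and Cyp1a2, a perivenous cytochrome P450, rose by 0.37 (SE 0.10, adjusted p = 0.095). Of all probe sets, 0.828% were called in that comparison. The lists as a whole were split there. Means were higher for 2 and lower for 4 periportal genes, and higher for 4 and lower for 5 perivenous genes. Tat, a glucocorticoid-induced enzyme of tyrosine breakdown, differed by -0.53 at 4 days with all controls (adjusted p = 0.237). In that comparison 5 of the 7 hormone-response genes had a higher mean in handled rats and 2 a lower one. Without control rats 1 to 3, 0 were higher and 7 lower.

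Markers of other liver cells were read in 7 further lists, with 4 or 5 genes measured in each. Across them 1 gene passed the test, Nkg7 of the cytotoxic lymphocyte list, a dim gene at 0.237 or less in any rat. It fell at 4 days by 0.42 with all controls (adjusted p = 0.0902) and by 0.49 without the 3 rats (adjusted p = 0.0559). Of all probe sets, 0.657% and 0.828% were called in these comparisons. Means in the list of 4 were higher for 2 and lower for 2 with all controls, and higher for 1 and lower for 3 without the 3 rats. The summed Kupffer cell markers had a median of 15.5 in control rats 1 to 3, 18.9 in control rats 4 to 10, 18.8 at 1 day and 15.4 at 4 days, with overlapping ranges. The 4 endothelium markers summed to 11.2 to 12.1 in control rats 1 to 3, below control rats 4 to 10 (12.7 to 14.2) and the 1 day group (12.6 to 15.2) and overlapping the 4 day group (11.6 to 13.9). Pecam1, an adhesion protein of endothelium, read 0.235 to 0.279 in control rats 1 to 3 against at least 0.316 in the other 27, and Hgf, a growth factor made by stellate cells, at most 0.0828 against at least 0.0873. The 5 stellate cell markers were mixed, and their sums overlapped, at 8.34 to 9.61 in control rats 1 to 3 and 7.76 to 10.7 in control rats 4 to 10. Lrat and Des had higher means in the first 3 controls, and Hgf, Reln and Colec11 lower ones. The part of these cells in the Asl and Otc results was not tested.

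Within groups, most members varied together from rat to rat. Over the 27 rats, with group means removed, 8 of 15 pairs of genes had a permutation p below 0.05 after adjustment over the 15, 7 positive and 1 negative. Cps1 and Asl had r = 0.70 (rho = 0.59, adjusted permutation p = 0.00112), Cps1 and Ass1 r = 0.68 (rho = 0.59, adjusted permutation p = 0.00105) and Ass1 and Arg1 r = 0.61 (rho = 0.64, adjusted permutation p = 0.00356). Leaving out the 2 rats farthest from the median of the first gene gave 0.43, 0.49 and 0.48.

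These relations leaned on single animals. Rat 9 of the 1 day group was the highest of its group for 5 of 6 genes, all but Otc, and the highest in 12.2% of bright probe sets. Rat 10 of the 4 day group was the lowest for 4 of 6 genes (Cps1, Ass1, Asl and Arg1), and the lowest in 14.1%. Rat 9 of the 4 day group was the highest for 4 of 6 genes (Cps1, Asl, Arg1 and Slc25a15), and the highest in 10.2%. Without both, r was 0.37 for Cps1 and Asl, 0.45 for Cps1 and Ass1 and 0.38 for Ass1 and Arg1. Asl and Slc25a15 changed less, from r = 0.57 (rho = 0.57, adjusted permutation p = 0.00472) to 0.52, with 0.24 in control rats 4 to 10, 0.80 at 1 day and 0.68 at 4 days.

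Otc was the exception to this pattern. It had no positive relation that passed the test with any other member, and a negative one with Slc25a15 (r = -0.55, rho = -0.52, adjusted permutation p = 0.00615). That r was -0.70 in control rats 4 to 10, -0.45 at 1 day and -0.45 at 4 days, and -0.54 without the 2 farthest rats.

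**Figure D3:**
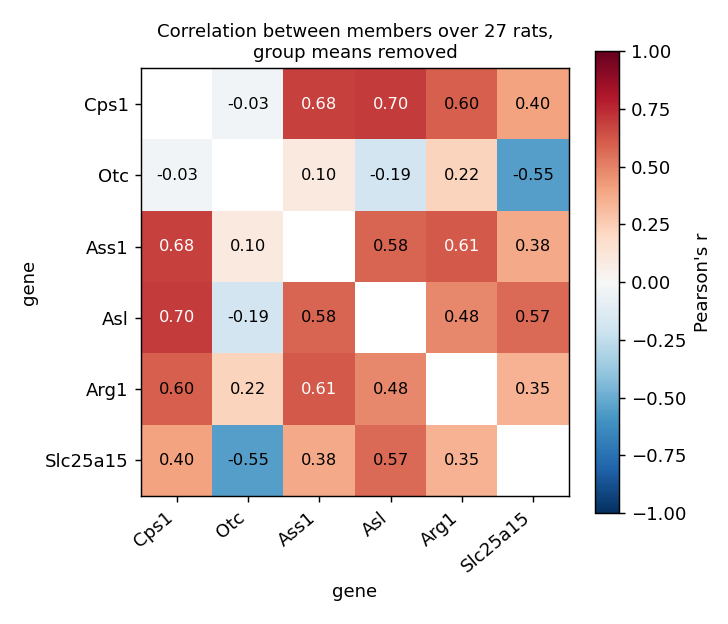
Pearson's r between the brightest probe sets of the 6 genes over 27 rats (control rats 4 to 10 and both handled groups), with group means removed. The Otc row runs from -0.55 with Slc25a15 to 0.22 with Arg1, while Cps1, Ass1, Asl and Arg1 form positive pairs up to 0.70.

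The genes whose levels most resembled each member over the 27 rats were named from 14216 others by Pearson's r, as a description without a test. Group means were not removed for this r, so differences between groups enter it. Asl was most like Sds (r = 0.90), Tpst1, a tyrosylprotein sulfotransferase (0.86), and Ddi2, a protease (0.84). Otc was most like Enpp3, an ectonucleotide pyrophosphatase (0.88), Gamt, of creatine synthesis (0.87), and Iyd, an iodotyrosine deiodinase (0.83).

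Control rats 1 to 3, which took no part in that ranking, were then set beside it. For Tpst1 they read 1.82 to 3.38 against 4.82 to 9.95 in the other 27, and for Ddi2 2.03 to 2.54 against a lowest value of 3.17, below all as for Asl. Sds overlapped, at 0.424 to 1.68 against a lowest value of 0.0993. For Gamt they read 19.1 to 23.3 against 8.86 to 15.3, for Enpp3 4.86 to 5.49 against 1.26 to 4.28 and for Iyd 3.11 to 5.36 against 1.20 to 3.07, above all as for Otc.

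**Figure D4:**
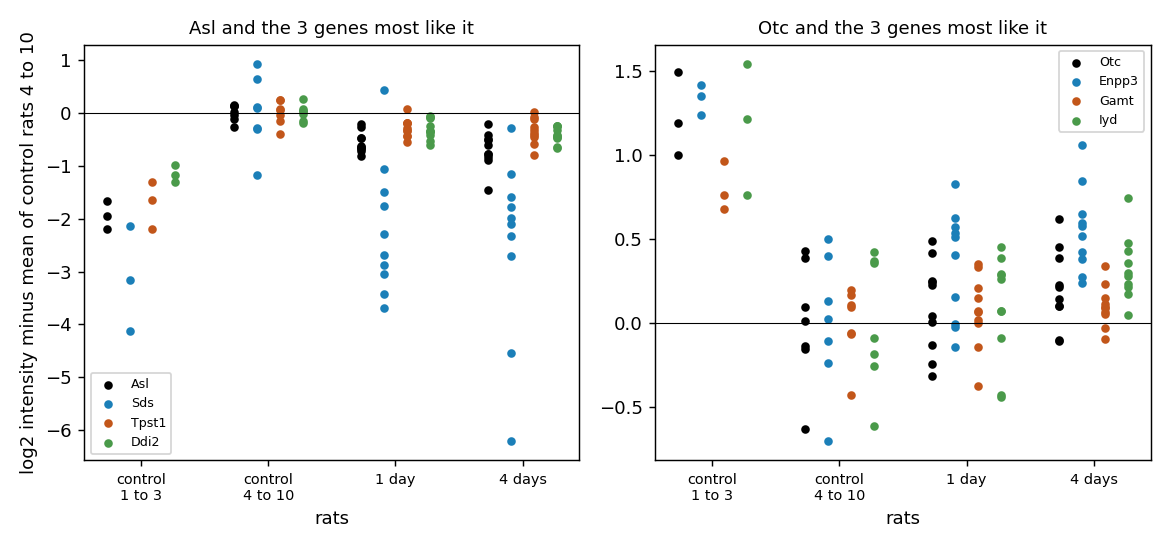
Log2 intensity minus the mean of control rats 4 to 10 for Asl (left) and Otc (right) with the 3 genes most like each. Each point is 1 rat. Control rats 1 to 3 lie below all other rats for Asl, Tpst1 and Ddi2 and above them for Otc, Enpp3, Gamt and Iyd. For Sds they lie below control rats 4 to 10 and overlap the handled rats.

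The same ranking was made for the remaining members. Cps1 was most like Mbnl2 (0.72), Gls2, the liver glutaminase that releases ammonia (0.72), and Phyh (0.71). Phyh, of phytanic acid breakdown, read 12.7 to 14.3 in control rats 1 to 3 against 24.5 to 45.2 in the other 27, although Cps1 itself overlapped. Ass1 was most like Tmem106b, Uckl1 and Kcnj13 (0.74, 0.74 and 0.72), and Slc25a15 like Cgrrf1, Mettl13 and Atp9a (0.83, 0.75 and 0.72). Arg1 was most like Cdo1, of cysteine breakdown (0.87), Baiap2 (0.83) and Uox, of urate breakdown (0.82).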

How the data were processed

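Total RNA from 30 livers was labelled and hybridized to 1 array each. Per the labels and the study's methods, the authors used a 3 prime labelling kit. The deposited values are linear intensities, and the methods name Affymetrix GCOS and Rosetta Resolver, while the summary and scaling steps are not given in the sources used here. Each array had a mean of 1.01.

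The table held 31099 probe sets, and its 57 Affymetrix control rows were dropped. Of the 31042 tested, 20826 had 1 gene symbol, 436 several and 9780 none, and 20758 were matched to RefSeq (GRCr8). Log2 intensities were fitted with limma 3.58.1 in R 4.3.3, with 3 groups in 1 model, two-sided, and Benjamini-Hochberg adjustment over 31042 probe sets. The script was tested on simulated data. Labels do not give the animals' cages or processing days. The number of arrays limits the precision. Samples that share a replicate number were not paired in the main fit. Over 30 such pairs r was -0.04 to 0.12, and 11 correlated best with their own number. Whether the numbers pair the rats was not settled, and the permutations between members took no account of them.

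All member probe sets were named. From related lists the genes past the threshold, or else those with the smallest p, were named, and for each member the 3 genes most like it. The members and lists were chosen with earlier results of these data known. Alternatives were an offset, normalization, array weights, a covariate, other tests, filters and samples left out, and combinations with control rats 1 to 3 left out were added after seeing the data. Permutation tests used 100000 resamples.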

Additional observations from a re-analysis of the deposited data

Results flagged for a closer look

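Single rats stood apart within their group of 10 in 4 of 39 groups of member values, by the gap to the nearest rat relative to the range of the group. Chance flags about 1 in 20 groups. Rat 10 of the 4 day group was lowest for Cps1 (1384334_at), at 25.3 with the next rat at 29.8. Rat 9 of the 1 day group was highest for Slc25a15 on 1374800_at, at 13.9 with the next at 12.2, and on 1397647_at, at 1.94 with the next at 1.40. Control rat 2 was lowest for Slc25a15 on 1397647_at, at 0.688 with the next at 1.29.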

How the results depend on the processing

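With all controls, the count of members called in each comparison stayed at 0 under every offset, normalization, weighting, trend, covariate, test, filter and threshold tried, and with the replicate block (0 called). Same-numbered rats had r above 0.1 in 1 of 30 pairs, but 11 of the 30 correlated best with their own number. Whether the numbers pair the rats was not settled. Leaving out control rat 2 alone gave 1 call at 4 days, Slc25a15 1397647_at (adjusted p = 0.0846). Without control rats 1 to 3 the count was 2 at 1 day and 3 at 4 days. Combined with a second choice, added after seeing the data, it was 2 at 1 day with an offset of 1, quantile normalization, only the 2 groups, the rank-sum test or the t-test, and 0 with the Gapdh covariate or the replicate block (with which the Asl adjusted p = 0.177 and 0.131). At 4 days it was 3 with the offset, quantile normalization or the replicate block, 2 with the 2 groups, the rank-sum test or the t-test, and 0 with the Gapdh covariate. Leaving out single rats gave 0 to 2 at 1 day and 0 to 3 at 4 days over both sets of fits. Without the 3 rats, both Asl probe sets stayed called at 4 days in 27 of 27 such fits. At 1 day 1368916_at was called in 24 of 27, lost without control rat 6, 9 or 10, and 1367754_s_at in 17 of 27, lost without control rat 4, 5, 6, 9 or 10 or 1 day rat 2, 3, 4, 7 or 8 (adjusted p 0.0148 to 0.17). Slc25a15 1397647_at was called at 4 days in 18 of 27, lost without control rat 4, 5, 6 or 9 or 4 day rat 1, 3, 5, 8 or 10.

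Signs of small differences turned. Asl at 1 day was -0.0025 with an offset of 1, -0.0024 with cyclic loess and -0.27 with array weights. Without the 3 rats it was -0.56, and with a second choice -0.53 (offset), -0.55 (quantile or replicate block), -0.54 (Gapdh covariate) and -0.56 (2 groups, rank-sum, t-test). Otc without the 3 rats was 0.10 at 1 day and 0.20 at 4 days, and 0.01 at 4 days with array weights. Arg1 at 4 days was 0.0019 with array weights, 0.07 with the Gapdh covariate and 0.02 without the 3 rats. With that covariate Cps1 and Slc25a15 at 1 day were 0.0032 and 0.0051, and Ass1 between 4 days and 1 day was 0.01 (0.0045 with quantile normalization). Leaving out single rats gave -0.04 to 0.0024 for Cps1, -0.61 to 0.10 for Asl and -0.05 to 0.02 for Slc25a15 at 1 day, -0.05 to 0.05 for Arg1 at 4 days, and -0.05 to 0.0026 for Cps1 and -0.05 to 0.06 for Ass1 between 4 days and 1 day. The cause was not tested.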
